A study of Mus musculus with 6 samples.

Results

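Exons of 5 membrane skeleton genes (the ankyrins Ank2 and Ank3, the Epb41 family genes Epb41l1 and Epb41l3, and the adducin Add1) appeared among the splicing events that differed between Sfpq knockdown and control P19 cells. An event was taken when it lay inside the locus of one of these genes and matched the edges of an annotated exon. This gave 6 distinct events out of 643 in the whole data set, all of them cassette exons, which are exons kept or skipped as a unit. The exons were chosen by being listed as differing, so their presence in the lists is a description and was not tested.

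P19 is a mouse embryonal carcinoma line, a stem-cell-like tumour line that can be driven towards neurons, and a single line was studied. RNA was sequenced from 3 samples transfected with small interfering RNA against Sfpq, a paraspeckle protein of the nucleus that binds RNA, and from 3 control samples transfected with control siRNA. The deposited data are 3 lists of splicing events, called list 1, list 2 and list 3 here by their replicate number, with 270, 264 and 257 distinct events. They state where each event lies and its type, without an inclusion level, a direction or a read number for either group. They do not tell whether an exon was used more or less in knockdown cells or by how much, and the read depth behind each event is unknown. No listed event was assigned to Sfpq itself, and these files hold no expression value with which to check its knockdown.

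Ankyrins, the Epb41 family, named after a protein band of the red cell membrane, and adducins include adaptors of the spectrin-actin skeleton that lines the inner face of the plasma membrane. Ankyrins hold membrane proteins with their array of ankyrin repeats and spectrin with a domain further along the chain. Some Epb41 family members and the adducins sit where spectrin meets actin. These Epb41 proteins join that junction to membrane proteins, and adducin caps the fast-growing end of actin filaments. In neurons ankyrin-G, made by Ank3, gathers sodium channels and cell adhesion molecules at the axon initial segment and the nodes of Ranvier, and ankyrin-B, made by Ank2, works along the axon. All of these genes are known to make several protein forms by alternative splicing.

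The 6 exons are shown because each is the whole of a listed event. They were read 5′ to 3′ on the transcribed strand from annotated transcripts (GENCODE M21, assembly GRCm38, the same as mm10). Capitals mark the listed exon, and lower case marks 15 nt of the exon before it and 15 nt of the exon after it in the spliced transcript.
Ank2, 99 nt: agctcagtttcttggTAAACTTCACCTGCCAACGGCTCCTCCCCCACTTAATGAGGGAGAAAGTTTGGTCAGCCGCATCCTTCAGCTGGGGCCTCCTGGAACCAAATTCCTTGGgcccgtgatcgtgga
Ank3, 63 nt: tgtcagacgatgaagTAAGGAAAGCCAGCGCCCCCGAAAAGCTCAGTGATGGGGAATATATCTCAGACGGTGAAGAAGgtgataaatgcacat
Ank3, 54 nt: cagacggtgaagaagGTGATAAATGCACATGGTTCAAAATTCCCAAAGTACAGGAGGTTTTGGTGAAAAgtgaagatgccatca
Epb41l1, 36 nt: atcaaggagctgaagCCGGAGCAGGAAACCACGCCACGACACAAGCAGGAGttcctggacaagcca
Epb41l3, 36 nt: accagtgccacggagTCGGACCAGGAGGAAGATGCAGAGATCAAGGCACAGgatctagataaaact
Add1, 37 nt: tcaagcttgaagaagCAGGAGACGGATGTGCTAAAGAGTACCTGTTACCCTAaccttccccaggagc
The GC content of the exon was 54.5% in Ank2, 50.8% in the 63-nt Ank3 exon, 37.0% in the 54-nt Ank3 exon, 63.9% in Epb41l1, 55.6% in Epb41l3 and 48.6% in Add1.

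List 1 held 3 of the exons, both Ank3 exons and the Add1 exon. List 2 held the Ank2 and Epb41l3 exons, and list 3 held the Epb41l1 and Add1 exons. For scale, an event of any type was present in list 1 for 1.24% of the 20620 protein-coding genes with more than 1 exon, in list 2 for 1.23% and in list 3 for 1.16%. The share with an event in any list was 2.80%, or 578 genes. Since the 5 genes were selected on these same lists, nothing is read from their number against these shares. Only the Add1 exon was present in more than 1 list. Over the whole data set, the same chromosome, start, end and type recurred for 126 of all 643 events (19.6%) and for 89 of all 439 cassette exons (20.3%), counts that include Add1. The 5 remaining exons each rest on a single list, and no error can be attached to them.

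**Figure D1:**
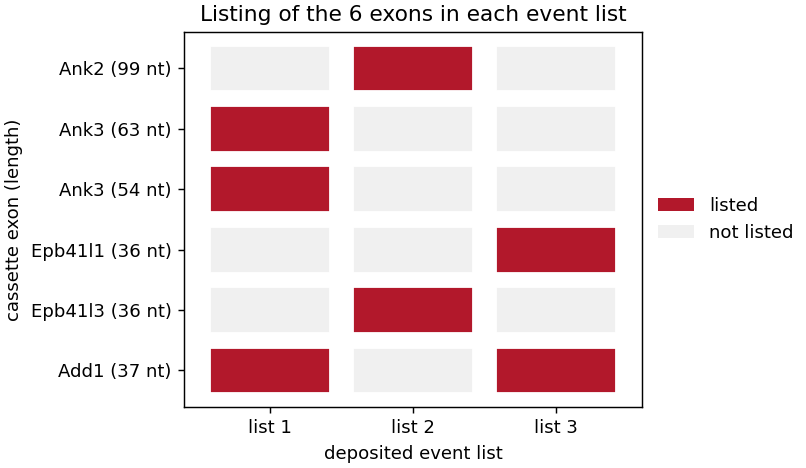
Presence of each exon (rows, with its length) in each of the 3 deposited event lists (columns). Red cells are listed and pale cells are not. The Add1 exon is red in lists 1 and 3, and the other 5 exons are red in 1 list each.

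Ank2 codes for ankyrin-B. Its listed exon was 99 nt long, at chr3:126963383-126963481 on the minus strand, and was exon 28 of 46 of the transcript Ank2-207. It appeared in list 2. The exon lies between exons of 225 and 155 nt, with introns of 1456 nt before it and 977 nt after it, both shorter than the median Ank2-207 intron of 2202 nt. Of 16 annotated protein-coding Ank2 transcripts, 3 held the exon, 2 skipped it and the others did not span it. With the exon the predicted Ank2-207 protein has 3926 residues, against 3893 without it, a difference of 33.

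The Ank2 exon coded for residues 1042 to 1075 of Ank2-207, counting the residue that it shares with each neighbour. The position of the ankyrin repeats was marked by the TPLH tetrapeptide, a hallmark of the repeat, which occurred 11 times in the protein, first at residue 235 and last at residue 763. The exon therefore began 279 residues after the last of these matches, and none lay at or beyond it. The sequence that the exon changes is outside the stretch in which these matches were found. Repeats without this exact tetrapeptide were not marked, so the end of the repeats was not located.

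The Ank2 exon resembled the end of the exon before it. This likeness was noticed in the printed sequences and then counted, so it is a description. The pair is printed because the shared letters can be followed by eye, with the 99 nt of exon 28 set against the last 99 nt of exon 27 (chr3:126964938-126965162, minus strand), and capitals marking positions where both hold the same base.
Ank2 exon 28: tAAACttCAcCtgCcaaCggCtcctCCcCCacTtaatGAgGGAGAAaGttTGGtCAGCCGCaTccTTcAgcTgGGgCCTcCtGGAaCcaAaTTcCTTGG
Ank2 exon 27, last 99 nt: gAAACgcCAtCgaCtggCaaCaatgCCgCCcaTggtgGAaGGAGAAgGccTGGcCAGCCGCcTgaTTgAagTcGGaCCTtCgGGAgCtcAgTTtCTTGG
They were identical at 57 of 99 positions (57.6%) with no gap, and 15 of 32 translated residues were the same. Over 162228 pairs of adjacent internal exons of at least 36 nt, compared in the same way from their ends, the median identity was 26.4%, and 0.29% of pairs reached the Ank2 value or more. The exon after exon 28 matched it at 22.2% of positions. The other 5 listed exons matched their neighbours, before or after, at 13.5% (Add1, before) to 41.7% (Epb41l1, before) of positions. The Epb41l1 exon, compared over 36 nt, also ranked high among all pairs. Its 41.7% before was reached by 1.8% of pairs, and its 38.9% after by 2.9%. The pairs were not matched for length. Identity varies more over a stretch as short as 36 nt, so nothing is read from this rank. The same Ank2 exon matched a 225-nt exon of Ank1, the erythroid ankyrin, at 61 of 99 positions and a 225-nt exon of Ank3 at 50 of 99. The last 99 nt of Ank2 exon 27 matched the same stretch of that Ank1 exon at 61 positions and of that Ank3 exon at 68 positions. Among the 99-nt exons of Ank1 and Ank3, the best match to the Ank2 exon was 35 positions in Ank1 and 33 positions in Ank3. In a protein alignment with Ank3-231, 3 of the 34 residues that the Ank2 exon touches were aligned.

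Ank3 codes for ankyrin-G and contributed a pair of neighbouring exons, both from list 1. The first was 63 nt long at chr10:69904448-69904510 on the plus strand, exon 23 of 43 of Ank3-231, and the second was 54 nt long at chr10:69920438-69920491, exon 24. They are separated by an intron of 15927 nt, which ranked 5 of 42 from the longest in that transcript, where the median intron was 2854 nt. The intron before the 63-nt exon was 177 nt long and ranked 41 of 42. The intron after the 54-nt exon was 7203 nt long and ranked 10 of 42.

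The annotation held every combination of the Ank3 pair. Of 31 protein-coding transcripts, 14 spanned both exons. In these, 2 kept both exons, 3 kept the 63-nt exon alone, 1 kept the 54-nt exon alone and 8 kept neither, so the 63-nt exon was present in 5 and the 54-nt exon in 3. The lists treat each exon as an event of its own and do not say which exons occurred in the same RNA molecule. The presence of both exons in list 1 therefore does not tell which of these combinations differed.

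Both Ank3 exons kept the reading frame and together were 117 nt long. The 63-nt exon coded for residues 834 to 855 of Ank3-231, where the protein had 1961 residues with the exon and 1940 without it. The 54-nt exon coded for residues 855 to 873, and leaving it out alone gave 1943 residues. The TPLH hallmark occurred 11 times, last at residue 715, so that the exons began 119 and 140 residues after it. As in Ank2, neither exon touched the stretch with these matches, and repeats without the exact tetrapeptide were not marked. In alignments with Ank2, 3 of the 22 residues touched by the 63-nt exon and 8 of the 19 residues touched by the 54-nt exon were aligned, with 3 identical in each, and all of the aligned ones fell in Ank2 exons other than the listed one. The likeness of each Ank3 exon to its neighbours was between 24.1% and 30.2% of positions, around the 26.4% median of all pairs.

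Both ankyrin genes hold a very long internal exon that is known for making the giant neuronal forms of these proteins. The longest internal exon was 6198 nt in Ank2 and 7674 nt in Ank3. It was present in 2 protein-coding transcripts of Ank2 and 1 of Ank3 and was skipped in others. Neither was listed.

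**Figure D2:**
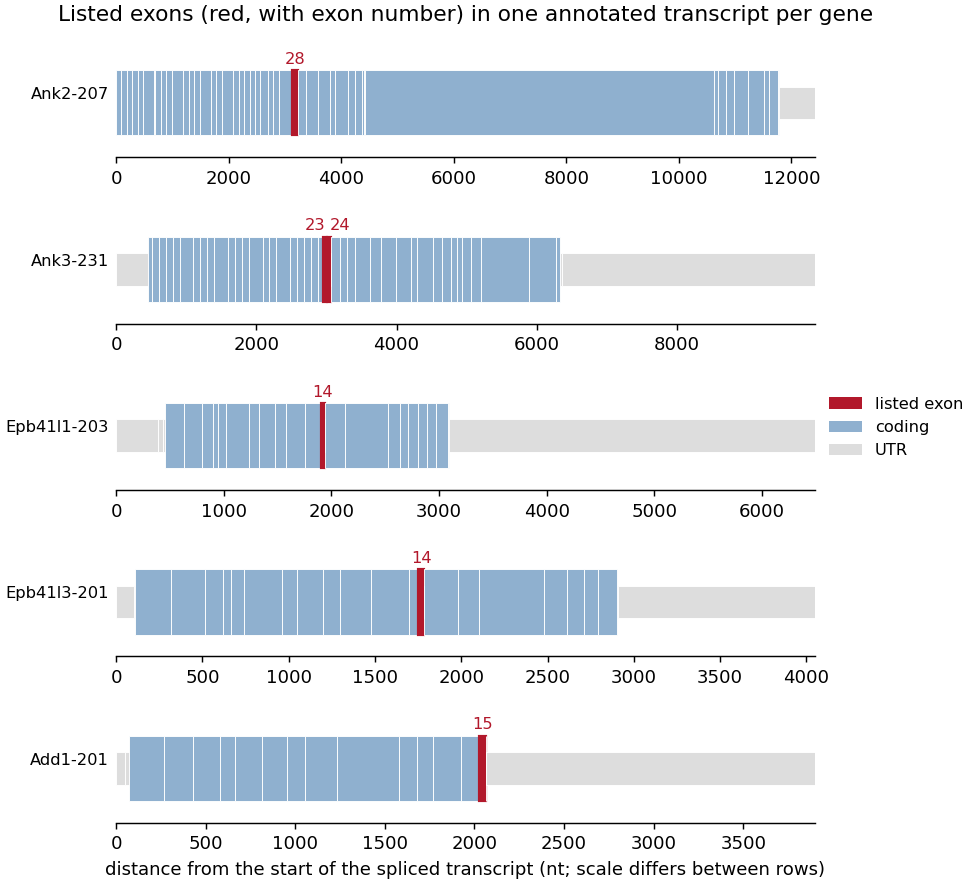
Spliced maps of the transcript used for each gene, with distance from the transcript start in nt on the horizontal axis (a separate scale for each row). Tall blue boxes are coding, low grey boxes are untranslated, and red boxes are the listed exons with their exon number. Exons 28 of Ank2, 23 and 24 of Ank3 and 14 of both Epb41 genes lie inside the coding sequence, and exon 15 of Add1 lies at its end.

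Epb41l1 codes for the member of the Epb41 family that is best known from neurons. Its listed exon was 36 nt long at chr2:156511785-156511820 on the plus strand, exon 14 of 23 of Epb41l1-203, and came from list 3. Of 7 protein-coding transcripts, 4 held it and 3 skipped it, and all of them spanned it. The introns on its sides were 903 and 2207 nt, with a median of 2054.5 nt over the transcript. The exon coded for residues 484 to 495, and the protein had 879 residues with it and 867 without it.

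Epb41l3 codes for a family member that is found in neurons and glia near the nodes of Ranvier. Its listed exon was also 36 nt long, at chr17:69273882-69273917 on the plus strand, exon 14 of 22 of Epb41l3-201, and came from list 2. Of 12 protein-coding transcripts, 3 held it and 6 skipped it. The introns were 3217 nt before and 786 nt after, against a median of 2109 nt. It coded for residues 547 to 558, with 929 residues in the protein when it was kept and 917 when it was left out.

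In the transcripts that hold them, the Epb41l1 and Epb41l3 exons aligned with each other. They are equal in length, both begin at the first base of a codon, both add 12 residues, and they start 55.1% and 58.9% of the way along Epb41l1 and Epb41l3. In an alignment of Epb41l1-203 with Epb41l3-201, the 12 residues of one exon stood opposite the 12 residues of the other. Of these, 3 residues were identical, as were 17 of the 36 nt. The placement depends on the transcript: against Epb41l3-202, which lacks the listed exon, the 12 residues of the Epb41l1 exon were also aligned, 4 of them identical, and 7 fell in a 54-nt exon upstream of the site. Over the whole alignment 462 of 845 residues (54.7%) were identical. In the 30 residues before the exon 10 were identical, and in the 30 after it 15 were. The Epb41l1 exon coded for 3 acidic and 3 basic residues (glutamate and aspartate, and lysine, arginine and histidine), and the Epb41l3 exon for 5 acidic and 1 basic. The exons were called in different lists, list 3 for Epb41l1 and list 2 for Epb41l3, so no list held both.

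**Figure D3:**
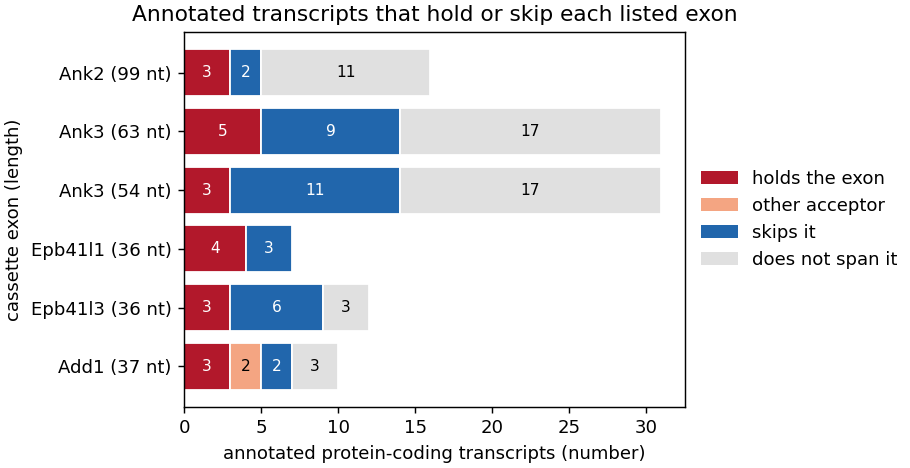
Annotated protein-coding transcripts (horizontal axis, number) for each listed exon, split into those that hold it, those with another acceptor for it, those that skip it and those that do not span it. Every exon has at least 2 transcripts that skip it and at least 3 that hold it.

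Add1 codes for alpha-adducin, the subunit that pairs with beta- or gamma-adducin. Its listed exon was 37 nt long at chr5:34629136-34629172 on the plus strand, exon 15 of 16 of Add1-201, and was present in lists 1 and 3 with identical edges. Of 10 protein-coding transcripts, 3 held it and 2 skipped it. A further 2 held a 34-nt form whose acceptor lay 3 nt further downstream and whose donor was the same. That shorter form was not listed. The introns were 622 nt before and 1297 nt after, against a median of 2202 nt in the transcript.

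The Add1 exon was the only one of the 6 whose length is not divisible by 3, and the only one that held part of a stop codon. The ends of both reading frames are shown because they differ. In each, capitals mark the stop codon, and the form with the exon is printed from the first base of the exon.
Add1, exon kept: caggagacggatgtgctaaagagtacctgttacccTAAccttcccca
Add1, exon left out: aagaagagcaagaagaagagtgactccTGA
With the exon the stop codon began 2 nt before the exon's end and ran into the last exon. The protein then had 12 residues after the point where the forms part and 663 residues in all. Without the exon it had 115 residues after that point and 766 in all, so the form with the exon was shorter by 103 residues. Lysines were also counted. With the exon, 1 of the 12 residues after the branch point was a lysine, against 12 of the 115 without it. The last 30 residues of the protein held 2 lysines with the exon and 11 without it. Other charged residues were not counted. The lysine-rich end of adducins is related to the MARCKS protein and is known to bind calmodulin. The lists do not say which of these ends was more frequent in knockdown cells.

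**Figure D4:**
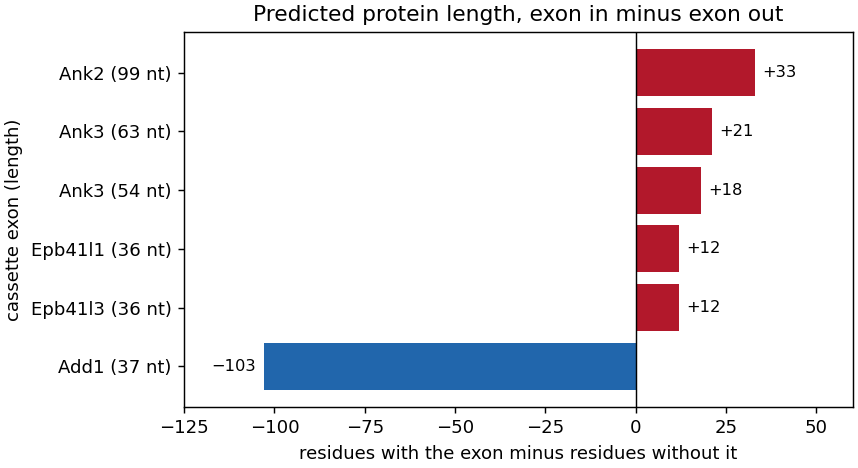
Difference in predicted protein length for each exon (horizontal axis, residues with the exon minus residues without it). Red bars are gains of 12 to 33 residues for the 5 exons of Ank2, Ank3, Epb41l1 and Epb41l3, and the blue bar is the difference of −103 residues for Add1.

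Of the 6 exons, 5 had a length divisible by 3 and 5 lay wholly in coding sequence, Add1 being the exception in both. Over all 439 cassette exons listed, 270 (61.5%) had a length divisible by 3. Within the genes themselves, the share of internal coding exons with such a length was 72.5% in Ank2, 73.2% in Ank3, 61.9% in Epb41l1, 68.2% in Epb41l3 and 78.6% in Add1. The genes held 38 exons that one protein-coding transcript keeps and another skips with the same neighbouring exons, of which 6 were listed and 32 were not. Of the listed ones 5 were divisible by 3, as were 27 of the 32 that were not listed. The unlisted ones were most numerous in Ank2 and Ank3, with 9 each, followed by 7 in Epb41l3, 5 in Add1 and 2 in Epb41l1.

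The 6 exons were short, with a median of 45.5 nt, against 81 nt over all cassette exons listed, and 5 of them were below that median. The 37-nt Add1 exon and both 36-nt Epb41 exons fell among 87 cassette exons (19.8%) of at most 37 nt. The Ank2 exon was the only one above the median, and 150 of the listed cassette exons were longer than it.

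**Figure D5:**
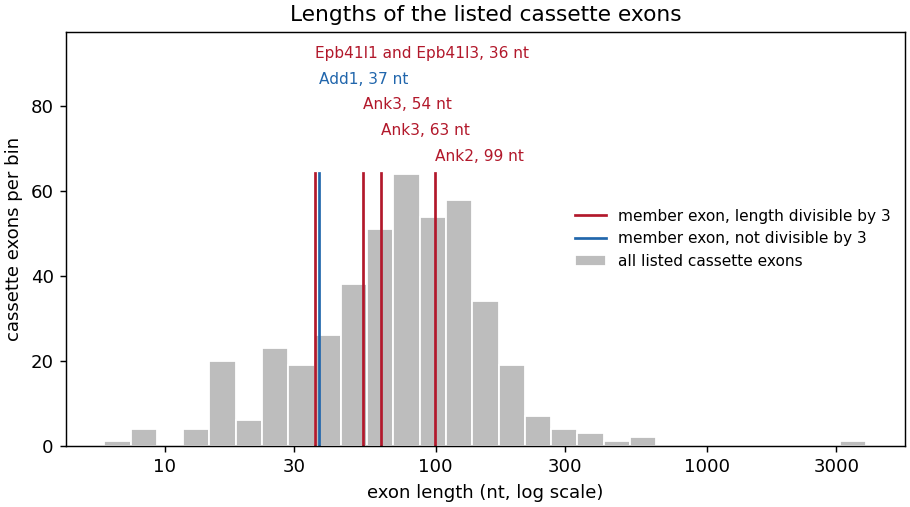
Lengths of all 439 listed cassette exons (grey bars, number per bin, with length in nt on a log axis) and of the 6 exons described here (vertical lines, red for a length divisible by 3 and blue for the 37-nt Add1 exon). The lines at 36, 37, 54 and 63 nt lie to the left of the overall median of 81 nt, and the line at 99 nt lies to its right.

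The genes were long. Ank3 spanned 628.7 kb (ENSMUSG00000069601), Ank2 577.7 kb (ENSMUSG00000032826), Epb41l3 214.3 kb (ENSMUSG00000024044), Epb41l1 122.3 kb (ENSMUSG00000027624) and Add1 58.6 kb (ENSMUSG00000029106). The median was 42.2 kb for the 578 genes with an event and 19.5 kb for all multi-exon protein-coding genes. Among genes with an event, 99.3% were shorter than Ank3, 99.0% than Ank2, 90.3% than Epb41l3, 81.3% than Epb41l1 and 60.2% than Add1. Longer genes hold more exons and introns that can be called, and the part of gene length in these listings was not tested.

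No further listed event of any type lay inside the 5 loci. The nearest event outside was 6.7 kb from Epb41l1, a 143-nt cassette exon of Aar2. For Ank2 it was 47.6 kb away in Larp7, for Ank3 137.5 kb away in Rhobtb1, for Add1 590.0 kb away in Gm1673 and for Epb41l3 5062.0 kb away in Spast.

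Of the families themselves, 2 of 3 ankyrins were listed (Ank1 was not), 2 of 7 Epb41 genes (not Epb41, Epb41l2, Epb41l4a, Epb41l4b or Epb41l5) and 1 of 3 adducins (not Add2 or Add3), or 5 of 13 genes. These families were drawn up around genes already known to be listed, so their counts carry that choice. Of 11 other skeleton genes, tropomodulins, tropomyosins and actins among them, 0 had an event in any list. Over all multi-exon protein-coding genes that share was 2.80%, so few events would be met among 11 genes and nothing is read from the 0. The lists do not tell whether these genes were expressed in P19 cells.

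Among 13 membrane proteins that an ankyrin or Epb41 protein is known to bind, 3 had an event, each in 1 list. The share over all multi-exon genes that code for protein was 2.80%, and nothing is read from the difference, since the lists were drawn up with earlier results known. Nrcam and Nfasc, cell adhesion molecules of the L1 family that ankyrin-G anchors at the axon initial segment, each had a cassette exon in list 3. The Nrcam exon was 30 nt long at chr12:44566840-44566869, and the Nfasc exon was 15 nt long at chr1:132593351-132593365. Dag1, the dystroglycan precursor, had an alternative donor site of 144 nt in list 2, at chr9:108263481-108263624. L1cam and Chl1, the other adhesion molecules of that family that were looked up, had no event. Over the 37 genes of these 5 lists, 8 had an event. These include the 5 genes described here, which were chosen for being listed. Nothing is therefore read from this count against the 2.80% over all multi-exon protein-coding genes.

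The words CTGT, CTGA and CTGTA, which stand for CUGU, CUGA and CUGUA in RNA, were searched on the transcribed strand of the exons because the study examined such words at Sfpq binding sites. Of the 6 exons, 1 held CTGT, the Add1 exon, and 0 held CTGTA. CTGT was present in 32.6% of 55658 internal exons of protein-coding transcripts of 36 to 99 nt and in 53 of 186 listed cassette exons of that length (28.5%). The 186 are those that are internal in a protein-coding transcript, and the other 26 of 212 were not searched. CTGTA was present in 5.9% of the annotated and 3.8% of the listed exons. With CTGA counted as well as CTGT, 1 of the 6 exons held either word, against 58.3% of the annotated and 49.5% of the listed exons. The annotated shares were lower at 37 nt, the length of the Add1 exon and the only single length examined. Of 260 annotated internal exons of 37 nt, 17.3% held CTGT and 33.1% held either word. With 6 exons, most of them short, nothing is read from these differences. A word in an exon is a match of letters and not a binding site, and the introns were not searched.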

How the data were processed

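RNA from 3 Sfpq knockdown and 3 control P19 samples was sequenced as paired ends on strand-specific libraries (the labels and the study's methods name different kits). Per the submitters' processing notes, cutadapt, Bowtie2 and STAR were used with mm10, without versions, and differential splicing was called by the authors with SpliceTrap. The threshold for listing an event, and how samples were matched in a list, are not given in the sources used here. The deposited values are positions and event types, with no count, level, direction or error, so no test was possible and the depth behind an event is unknown. The sources do not say whether each sample was a separate culture.

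Repeated lines (5, 4 and 5 in lists 1 to 3) were counted once, and 1 unreadable line of list 2 was left out. Starts were taken as counted from 0: with 1 added, 431 of 439 cassette events matched an exon of a multi-exon protein-coding gene exactly, against 0 without it. Printed positions count from 1. Events were assigned to GENCODE M21 genes by their exon edges (640 of 643), and this step was tested on simulated events. Exon numbers refer to the named transcript. Protein lengths come from its coding sequence with the exon kept or removed, and proteins were aligned with Biopython 1.88 (Python 3.11.15, figures with matplotlib 3.10.9). The result of 1 looked-up gene list is not reported here.

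The genes described are the 5 genes, Sfpq and every gene of the looked-up lists with an event. Other genes of those lists are named only as having none. Larp7, Rhobtb1, Aar2, Spast and Gm1673 are named only as nearest neighbours. The members and lists were chosen with earlier results of these data known. Alternatives left out each list in turn, or changed the edge rule, the repeated lines, the start and the event types.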

Additional observations from a re-analysis of the deposited data

How the results depend on the processing

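Leaving out each list in turn gave 4 to 5 distinct exons instead of 6, 0 to 1 exon shared between lists instead of 1, 3 to 4 with a length divisible by 3 instead of 5, 3 to 4 wholly in coding sequence instead of 5, and 5 to 7 genes with an event in the looked-up lists instead of 8. The shared Add1 exon was lost without list 1 and without list 3. With the start as given, 0 of the exons matched an annotated exon instead of 6. With lengths computed as if starts were counted from 1, 0 were divisible by 3 instead of 5. Requiring at least 2 lists left 1 of the looked-up genes, Add1. Any event within the loci, repeated lines kept and matching of at least 1 edge each gave 6, overlap in place of identity gave 1 shared exon, and cassette exons alone gave 7 genes. No paired analysis was possible because the lists hold no value per sample. The planned word search in flanking introns was not run, as no genome sequence was used here, and the search in exons alone and the comparison of neighbouring exons were chosen after seeing the data. Read depth, direction and error are unknown for every listed exon.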
